A study of Anoectochilus roxburghii with 9 samples.

Results

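A set of 258 genes in leaves of the medicinal orchid Anoectochilus roxburghii stood at a low or moderate level with an empty vector, higher with ArPHR2 and higher again with ArPHR4. They are 258 of the 85512 assembled genes that were counted. The members were chosen by measured values. The level in CPM was a gene's count over the total count of its library, times 1000000, and was averaged over the 3 libraries of each group. A member had at least 3 and under 1000 CPM with the empty vector, an ArPHR2/EV ratio above 1.5 and under 4 (here called the first step), and an ArPHR4/ArPHR2 ratio of at least 1.5 (the second step). The levels and both steps are therefore a description of what was selected, and no test of them is a finding.

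The leaves were wild type, and all groups received a transient overexpression treatment and were sampled on day 3. The 3 libraries titled CK form the empty vector group (EV), 3 libraries carry the name ArPHR2 and 3 the name ArPHR4. A deposited list of library names writes the constructs as PHB-YFP, ArPHR2-YFP and ArPHR4-YFP, so the fluorescent protein YFP is named in all of them. That PHB-YFP is the empty vector of the EV group is not stated, and what else the EV leaves carried is therefore not known. No source used here gives the promoter of the constructs. Whether each library is a plant of its own is not stated in the labels, so a p-value here sets a difference against a spread between libraries that may be technical only. In such bulk leaf samples, a change in the share of a cell type and a change of RNA per cell cannot be told apart.

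PHR proteins are MYB-type transcription factors, best known from Arabidopsis and rice. There they bind a short palindromic element in the promoters of phosphate starvation genes, among them genes for phosphate transporters, acid phosphatases and enzymes that replace phospholipids. SPX proteins hold PHR factors back when phosphate is plentiful, and many SPX genes are themselves induced by PHR factors. The genes here carry only the IDs of a transcriptome assembly. The files pair none of them with a name, a function or a sequence, so members are given by their rank, and whether any belongs to that pathway was not analysed here. Neither were the levels of the ArPHR2 and ArPHR4 transcripts themselves or leaf marker genes.

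Together the members went from a small to a clearly larger part of the leaf transcriptome. They took 0.646% ± 0.00821 of all counts in EV leaves, 1.33% ± 0.0179 in ArPHR2 leaves and 2.77% ± 0.0170 in ArPHR4 leaves (SD, n = 3). The 3 EV libraries lay between 0.640% and 0.656%, the ArPHR2 libraries between 1.32% and 1.35%, and the ArPHR4 libraries between 2.76% and 2.79%, with no overlap. The median member was at 9.92 CPM in EV, 19.7 CPM in ArPHR2 and 45.2 CPM in ArPHR4. In EV leaves 130 members were under 10 CPM (50.4%), while 4125 of the 15457 genes in the EV window of 3 to 1000 CPM were (26.7%). The median EV level was 24.2 CPM in that window. It was 13.3 CPM in window genes with the same first step and a smaller second step. In window genes chosen by the rule run in the opposite direction it was 9.29 CPM. A low EV level was thus not particular to the members. In ArPHR4 leaves 62 members reached at least 100 CPM. Per length, the median member was at 9.81 FPKM in EV, 19.0 FPKM in ArPHR2 and 43.4 FPKM in ArPHR4. FPKM is the authors' count of fragments per kilobase of transcript, scaled to depth.

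**Figure D1:**
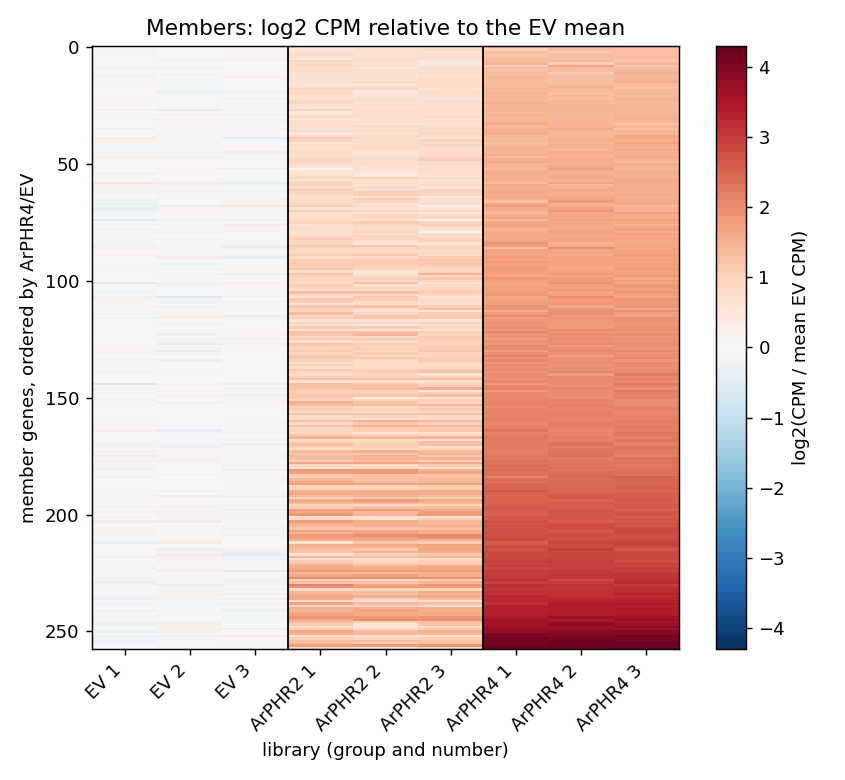
Level of each of the 258 members (vertical, ordered by ArPHR4/EV) in each of the 9 libraries (horizontal), as log2 of its CPM over its mean EV CPM, with lines between the groups. The EV libraries lie near 0, the ArPHR2 libraries are paler than the ArPHR4 libraries throughout, and libraries of 1 group look alike.

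The gain was spread over many members, with a few abundant ones in front. Between EV and ArPHR4, 10 members made up 30.6% of the summed gain in CPM and 50 members made up 67.5%. The member with the largest share of counts was TRINITY_DN2022_c0_g1. It was at 589.9, 575 and 575 CPM in the EV libraries, at 1036, 985 and 1045 CPM in the ArPHR2 libraries and at 1838, 1736 and 1828 CPM in the ArPHR4 libraries. Its groups were far apart, and its first and second ratios were nearly equal, 1.76 and 1.76. Its log2 fold changes were 0.75 ± 0.037 for ArPHR2 against EV and 0.79 ± 0.037 for ArPHR4 against ArPHR2 (SE, edgeR). Per length it rose from 863 ± 15.1 FPKM to 1480.5 ± 44.5 and 2569 ± 75.7 FPKM (SD, n = 3).

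The next members by share of counts took their rise in different proportions. Rank 2 was at 284, 267 and 262 CPM in EV, 892, 883 and 909 CPM in ArPHR2 and 1500.0, 1462 and 1479 CPM in ArPHR4. Most of its rise lay in the first step, with a ratio of 3.30 against 1.65 for the second. Ranks 3 and 4 also had the larger ratio in the first step, 2.48 and 2.62, against 1.65 and 1.62 for the second. Rank 5 was at 217 ± 5.49 CPM in EV, 433 ± 10.8 CPM in ArPHR2 and 889 ± 17.6 CPM in ArPHR4 (SD, n = 3), close to a doubling at each step. Ranks 6 to 8 lay between 106 and 193 CPM in EV and between 423 and 667 CPM in ArPHR4. Rank 9 differed from the other members of the leading 10: its mean was 59.3 CPM in EV and 98.0 CPM in ArPHR2, but 583 CPM in ArPHR4, a first ratio of 1.65 and a second of 5.95. Rank 10 was at 139 ± 3.40, 210.4 ± 6.83 and 372 ± 2.25 CPM (SD, n = 3). Ranks 3, 5 and 10 have other IDs in their assembly component, with which they can share reads.

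**Figure D2:**
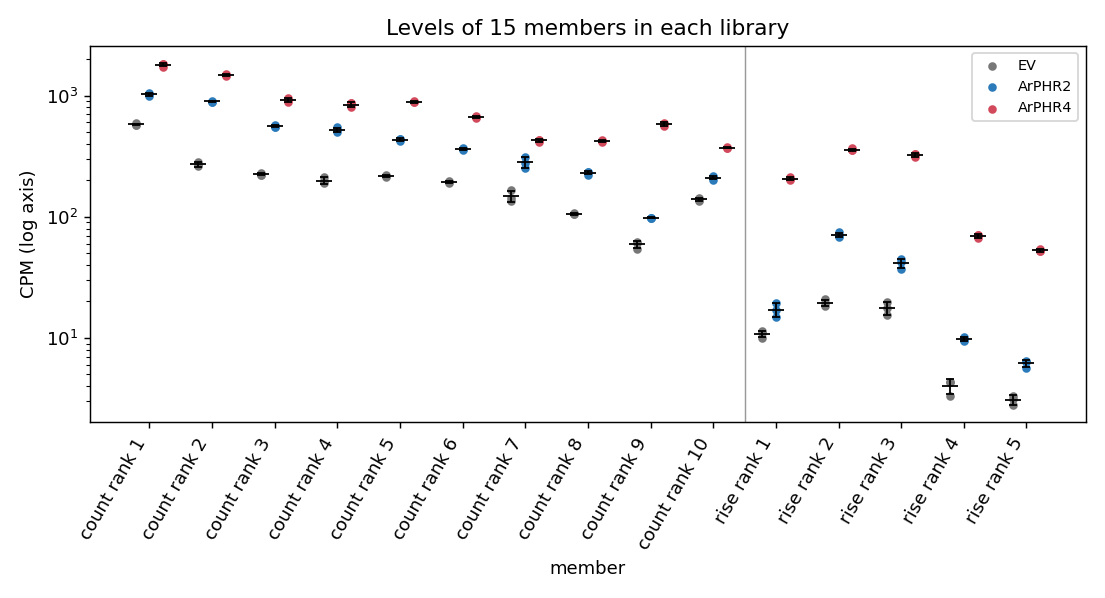
CPM on a log axis of 15 members in every library: the 10 with the largest share of counts (count rank) and the 5 with the largest ArPHR4/EV ratio (rise rank). Points are libraries coloured by group, and black marks are the mean and SD of 3 libraries; the groups of each member lie apart, from 580.0, 1022 and 1801 CPM at count rank 1 to 3.09, 6.16 and 52.8 CPM at rise rank 5.

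The members with the largest total rise rose mainly in the second step. At total ratios this large the rule fixes that order. It holds the first ratio under 4 and sets no upper limit on the second. TRINITY_DN3551_c2_g1 had the largest ArPHR4/EV ratio, 19.2. It was at 10.9, 11.4 and 10.1 CPM in the EV libraries, 17.0, 15.04 and 19.4 CPM in the ArPHR2 libraries and 203, 204.5 and 213 CPM in the ArPHR4 libraries. The first step was thus close to the lower limit of the rule and the second was the largest of all members, 12.1. Its log2 fold changes were 0.60 ± 0.090 and 3.56 ± 0.069 for the steps (SE, edgeR). It has 1 other ID in its component, which stood at 6.94 ± 1.10 CPM in EV and 10.2 ± 1.21 CPM in ArPHR4 (SD, n = 3).

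Rise rank 2 had large ratios at both steps, 3.64 and 5.06, and went from 19.5 ± 1.26 CPM to 70.8 ± 3.30 and 358 ± 7.86 CPM (SD, n = 3). Rise rank 3 went from 17.6 ± 2.13 CPM to 41.4 ± 3.72 and 323 ± 12.5 CPM. Ranks 4 and 5 were low in EV, at 4.00 ± 0.575 and 3.09 ± 0.273 CPM, and reached 69.7 ± 2.38 and 52.8 ± 1.43 CPM in ArPHR4. Their second ratios, 7.15 and 8.57, were larger than their first, 2.44 and 1.99.

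Over all members the steps were of nearly equal size. The median first ratio was 1.93 (range 1.505 to 3.96) and the median second ratio 1.88 (range 1.501 to 12.1). The first ratio has an upper limit in the rule and the second has none. The second ratio was the larger in 127 members and the first in 131. On the log2 scale, a median of 50.3% of the total rise lay in the first step, with a range of 15.7% to 75.1%. In CPM, the first step held a median of 34.6% of the gain. The total ratio, ArPHR4/EV, had a median of 3.88 and reached at least 5 in 78 members and at least 10 in 20. Both ratios were at least 2 in 56 members.

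The members sit at the edge of a larger group with the same first step. In the EV window, 1890 genes had an ArPHR2/EV ratio above 1.5 and under 4. Of these, 258 (13.7%) met the second limit and are the members, 177 (9.37%) were lower in ArPHR4 than in ArPHR2 by at least the same factor, and 1455 lay between. The 1632 genes that were not members had a median ArPHR4/ArPHR2 ratio of 0.97, and took 5.76%, 10.7% and 9.80% of all counts in EV, ArPHR2 and ArPHR4. The second ratio itself divides these genes from the members, so the difference between their sums at that step is a description of the choice.

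The second ratio spread more widely, in both directions, among genes with a first ratio far from 1. Among genes with an ArPHR2/EV ratio between 1/1.5 and 1.5, 4.91% of 11932 had a second ratio of at least 1.5. With a first ratio of 1.5 to 2 the share was 10.8% of 1336 genes, with 2 to 3 it was 18.8% of 464, and with 3 to 4 it was 30% of 90. With a first ratio below 1/1.5 it was 13.1% of 1554. The share lower in ArPHR4 than in ArPHR2 by a factor of 1.5 or more was 4.11%, 6.96%, 14.9%, 16.7% and 18.3% in the same classes, in the same order. The median second ratio was 1.01 to 1.10 in the classes from 1/1.5 to 4 and 0.975 below them. Both ratios hold the ArPHR2 libraries, so an error in these moves them in opposite directions.

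**Figure D3:**
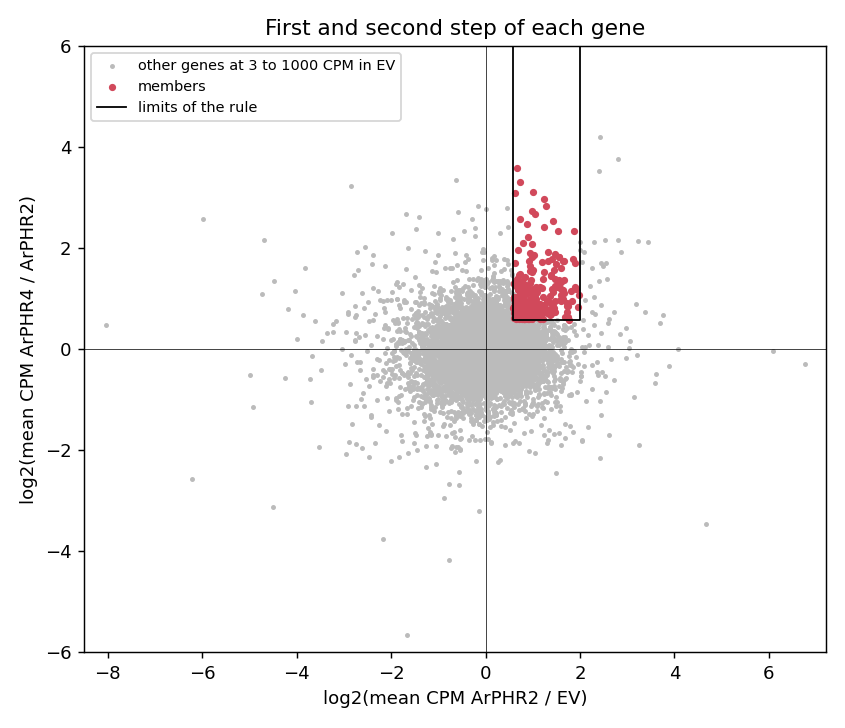
Each point is a gene with 3 to 1000 CPM in EV: log2 of ArPHR2/EV (horizontal) against log2 of ArPHR4/ArPHR2 (vertical), from group means, with members in red and the limits of the rule as lines. The members fill the lower left of the marked area most densely, and 14 of the 258 have a second ratio of at least 5.

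At both ratio limits and the lower EV limit, the nearest member and the nearest gene outside had close values of the limited measure. The CPM levels of such a pair could still be far apart, as at the limit of the second ratio. The member with the second ratio nearest the limit had 1.501 and the nearest gene outside 1.499. The member with the first ratio nearest 1.5 had 1.505, with 26.9 ± 3.13 CPM (EV) and 40.5 ± 1.92 CPM (ArPHR2; SD, n = 3); the nearest gene outside had 1.498, at 27.3 ± 1.56 and 40.9 ± 1.52 CPM. At the upper limit of the first step the nearest values were 3.96 inside and 4.02 outside. The lowest EV level of a member was 3.01 CPM and the next below the limit 2.99 CPM. No member was near 1000 CPM, since the highest EV level was 580.0 CPM.

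Every member passed the filter on low counts and was tested among 27275 genes. For ArPHR2 against EV, 258 members were called higher at an adjusted p under 0.05 (edgeR quasi-likelihood test, Benjamini-Hochberg adjustment over all tested genes), beside 22.6% of all tested genes. For ArPHR4 against EV it was 258 beside 26.1%, and for ArPHR4 against ArPHR2 258 beside 16.3%. Of all tested genes, 4.80% were called higher in both steps, 1310 genes, of which the members are 19.7%. The rule used these contrasts, so the counts only show that the selected means stood above the spread of the libraries. The median log2 fold change of the members was 0.88, 1.86 and 0.88, and that of all tested genes 0.01, 0.01 and 0.00. With the column totals of the rule in place of the scaling of this test (TMM), the members' median for ArPHR4/EV was 1.96 on the log2 scale.

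Library by library, 253 members had every ArPHR2 library above every EV library, beside 30.3% of tested genes. For ArPHR4 above ArPHR2 it was 258 members, beside 23.3%. For all 3 groups in order it was 253 members, beside 7.87%. The 5 members with an overlap of EV and ArPHR2 were at 3.01 to 3.72 CPM in EV, where an EV library held 34 to 79 counts of each. The median coefficient of variation between libraries was 9.20% in EV, 7.35% in ArPHR2 and 4.44% in ArPHR4 for the members. For all genes of the window it was 5.96%, 6.72% and 6.48%. The members' counts were also lower in EV than in ArPHR4, and the part of this in the measure was not tested. No library stood apart over the members: the median deviation from the group mean lay between -0.01 and 0.02 on the log2 scale in all 9 libraries.

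The steps were also read in libraries left out of the choice. The rule was set with earlier results of these data known, and the spread between libraries may be technical only. The left-out libraries are therefore a description and no independent test. The rule was applied to the means of 6 libraries, leaving out the library of 1 number in each group, and the ratios were then read in the left-out libraries. Leaving out number 1, 267 genes were chosen; leaving out number 2, 251; leaving out number 3, 256. In the left-out libraries the median first step was 0.96, 0.97 and 0.99 on the log2 scale, against 0.92, 0.92 and 0.98 in the libraries used to choose. The median second step was 0.92, 0.96 and 0.95, against 0.90, 0.88 and 0.90. Both ratios were above 1 in 262 of 267, 250 of 251 and 252 of 256 genes. The ratio limits of 1.5 were both met by 193, 190 and 193 genes, 72.3% to 75.7%. So the median steps were no smaller in libraries outside the choice, while the other chosen genes fell under at least 1 ratio limit there. The numbers name the libraries, and whether libraries of 1 number belong together is not stated in the labels.

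**Figure D4:**
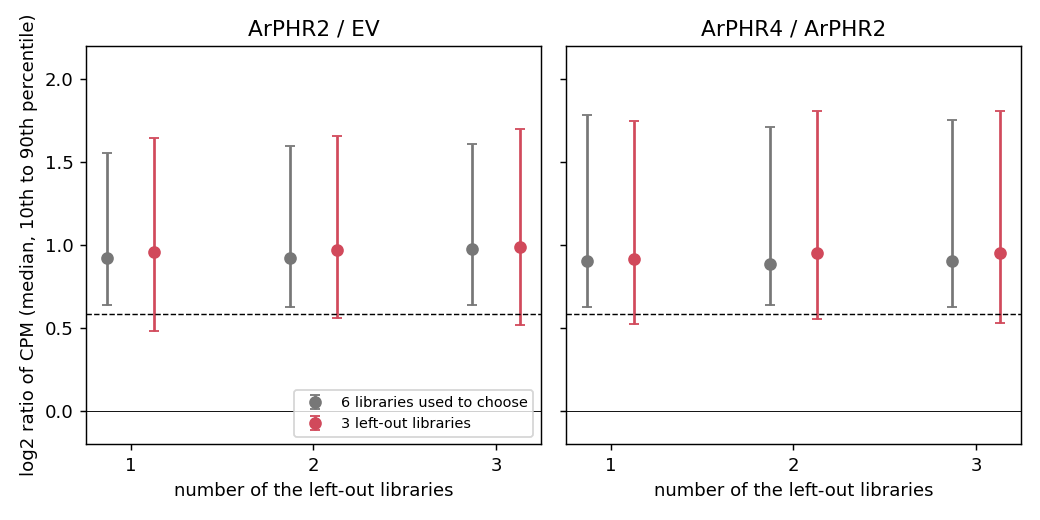
Log2 ratio of CPM for the first step (left) and the second step (right), for genes chosen with the libraries of 1 number left out; points are medians over the chosen genes and bars run from the 10th to the 90th percentile. The dashed line is the ratio limit of 1.5; in the left-out libraries (red) the medians are 0.96 to 0.99 and 0.92 to 0.96, no lower than in the libraries used to choose (grey), and the bars reach further down.

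The rule run in the opposite direction found a set of nearly the same size. With EV/ArPHR2 above 1.5 and under 4 and ArPHR2/ArPHR4 of at least 1.5, 251 genes of the EV window were chosen. They took 1.36% ± 0.0211, 0.699% ± 0.00327 and 0.369% ± 0.00529 of all counts in EV, ArPHR2 and ArPHR4 (SD, n = 3). Their median ratios were 0.504 and 0.538, close in size to the inverse of the members' ratios. Such a set is a description too, since the rule chose it.

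No pair of members came from the same component of the assembly. In IDs of this form the last number separates genes of 1 component, which share sequence. The 258 members lay in 258 different components, and the component of 72 members (27.9%) held at least 1 other ID, against 35.2% of genes in the EV window. These other IDs, 110 in all, were not members, and 51 of them, beside 42 members, were in the EV window. They are the IDs of that window that failed a ratio limit, so their values are a description too. Their ArPHR4/EV ratio had a median of 1.10 (range 0.176 to 9.33). In the same edgeR fit 20 of the 51 (39.2%) were called higher in ArPHR4 against EV, beside 26.1% of all tested genes, and 15 (29.4%) lower, beside 25.9%. Of these 51 IDs, 4 (7.84%) were called higher in both steps, beside the 4.80% of all tested genes. The tested genes include many outside the EV window, so these shares compare genes of unlike level. Of the 1310 genes called higher in both steps, 1004 lay in that window.

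With the counts of all IDs of a component added up, 16 of those 42 components still met both ratio limits. Over all 42 components the sums had a median ArPHR4/EV ratio of 2.37, while that of the 42 members was 3.45. IDs of 1 component can share reads, and the part of the division of reads in a member's rise was not tested.

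**Figure D5:**
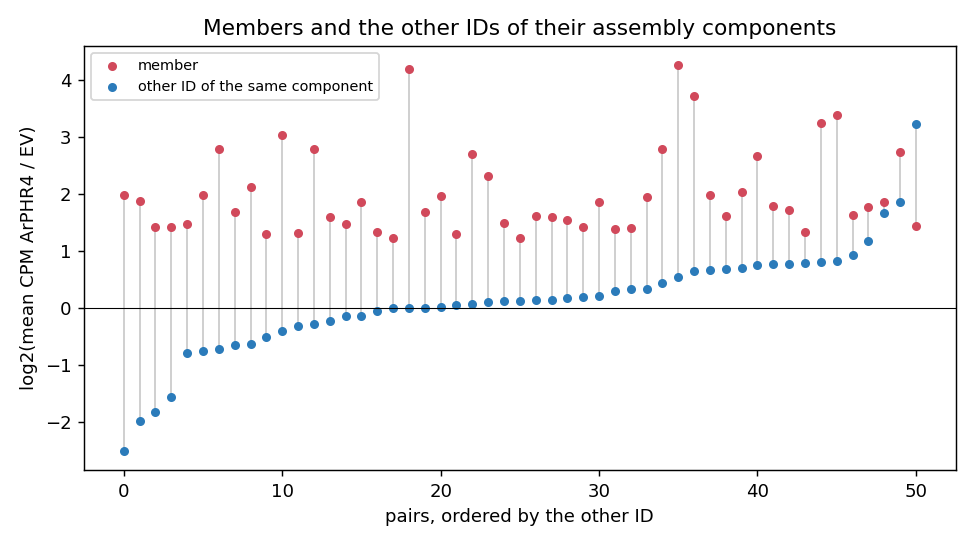
Log2 of ArPHR4/EV for the 51 other IDs (blue, ordered by value) that share an assembly component with a member and lie at 3 to 1000 CPM in EV, each joined to its member (red). The members lie above 1 throughout, while the other IDs run from below -2 to above 3 around a median ratio of 1.10.

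In 1 component, the other ID fell step by step while the member rose. The member, rank 30 by share of counts, was at 63.7, 60.6 and 64.5 CPM in EV, 109, 114 and 117 CPM in ArPHR2 and 234, 251 and 261 CPM in ArPHR4. The other ID was at 22.9, 24.8 and 26.7 CPM, then 9.80, 12.3 and 10.2 CPM, then 3.50, 5.55 and 4.05 CPM. None of its groups overlapped, and its log2 fold changes were -1.27 and -1.33 (edgeR). The sum of both was at 87.7 ± 3.06, 124 ± 4.64 and 253 ± 13.7 CPM (SD, n = 3), ratios of 1.41 and 2.04. This pair was chosen after its values were seen, as the one with the lowest ratio of the other ID.

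The length that the authors' FPKM implies for each gene was examined as well. Count divided by FPKM, scaled to the column total, gives an effective length per library, which can move when the mix of transcripts of a gene changes. It holds the counts by which members were chosen, and a choice of large CPM ratios favours genes whose CPM rose more than their FPKM, so the members' shifts are a description and no independent test. It was taken for genes with a minimum of 30 counts and 1 FPKM in each library, which 256 members and 15309 genes in all reached. The median implied length was 1095 bases for members and 1172 bases for all these genes, with a range of 27.5 to 3876 bases for members. The member with the value of 27.5 bases ranked 1 among the members by FPKM, at 1453 ± 49.2 FPKM in EV and 3495 ± 68.1 FPKM in ArPHR4 (SD, n = 3), but 56 by CPM. Its per-length level rests on that short value.

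Small shifts of implied length were frequent in the members and in all genes examined. For ArPHR2 against EV, 124 of the 256 members (48.4%) were called, beside 41.4% of all genes examined (limma, adjusted p under 0.05), with 115 longer (44.9%) and 9 shorter (3.52%). Among all genes examined 33.8% were longer and 7.55% shorter. For ArPHR4 against EV it was 139 (54.3%) beside 51.9%, with 127 longer (49.6%) and 12 shorter (4.69%), beside 41.8% and 10% of all genes. The longer direction thus prevailed in all genes too. The median shift was small, 0.04 and 0.05 on the log2 scale for the members and 0.03 and 0.05 for all genes. When libraries were centred on differences within genes instead, the members called were 59 and 64, beside 23.8% and 20.0% of all genes. Of these members 41 and 48 were longer. The share of all genes called longer with this centring was not analysed here. The members' number of longer calls thus depended on the centring, and whether it exceeds that of all genes was not tested.

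Between the constructs, 10 members (3.91%) were called, beside 1.46% of all genes examined. Of these members 9 (3.52%) were longer in ArPHR4 and 1 (0.391%) shorter, beside 0.83% and 0.627% of all genes. The 2 members named above, TRINITY_DN2022_c0_g1 and TRINITY_DN3551_c2_g1, are among the 10, with shifts of 0.05 and 0.16 on the log2 scale. This count was fragile, and the share of all genes called fell with it. It was 7 without EV library 1, beside 0.972% of all genes. Without any 1 of the other 8 libraries it was 1 to 4, beside 0.306% to 0.767%. With the library number as a replicate block it was 0, beside 0.111%. With a minimum of 100 counts and 5 FPKM it was 30 of 149 members, beside 10.9% of 11468 genes. Whether the members differ from other genes in this was not tested.

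Of the 256 members, 1 (0.391%) was called with a shift of at least 1.5-fold against EV, for both constructs, beside 0.581% of all genes for ArPHR2 and 1.12% for ArPHR4. Its implied length was 1129, 1177 and 1027 bases in EV, 2438, 2216 and 2402 bases in ArPHR2 and 2517, 2375 and 2326 bases in ArPHR4. Both overexpression groups lay far above EV, with log2 shifts of 1.08 ± 0.061 and 1.12 ± 0.061 (SE, limma). The groups ArPHR2 and ArPHR4 overlapped. The gene ranked 178 by share of counts, and no other ID was in its component. Its counts rose from 5.49 ± 0.757 to 15.04 ± 0.852 and 26.3 ± 1.37 CPM (SD, n = 3), but per length from 4.91 ± 0.653 to 6.38 ± 0.723 and 11.1 ± 0.876 FPKM. The first ratio was thus 2.74 in CPM and 1.30 in FPKM, while the second was 1.75 and 1.74. This gene was singled out after its values were seen. The member of the opposite pair moved the other way, with log2 shifts of -0.50 ± 0.031 and -0.56 ± 0.031 against EV (SE, limma), so that its first ratio was larger in FPKM, from 28.2 ± 0.378 to 72.1 ± 0.212 FPKM, than the 1.80 in CPM.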

How the data were processed

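RNA of 9 leaf libraries was measured as messenger RNA sequencing, with total counts of 16032716 to 17244083 per library. The deposited table gives raw counts (whole numbers) and FPKM per assembled gene, per the file headers. The gene IDs begin with TRINITY, the name of an assembler, and no source used here names the aligner or counter. No per-library column was left out. The rule was applied to CPM from column totals. Counts of 27275 genes that passed edgeR's expression filter entered edgeR 4.0.16 under R 4.3.3 (TMM, quasi-likelihood test, 1 model with 3 group means). Implied length, log2(count/FPKM) centred on each library's median, was tested with limma 3.58.1. The code of both fits was tested on simulated data. Adjustment (Benjamini-Hochberg) was over all genes fitted. For edgeR, a standard error is the absolute log2 fold change over the square root of F. For limma it comes from the fit's own estimate of the spread. DESeq2 1.42.0, other scalings, filters, limma on log2(FPKM + 1) and left-out libraries served as alternatives.

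The members and lists were chosen with earlier results of these data known. The naming rule, without gene names, printed 2 IDs: the member with the highest mean CPM and that with the largest ArPHR4/EV ratio; others are given by rank. Lists of phosphate starvation, leaf and stress genes could not be applied without names. Genes with the same level but other steps were compared as counts only.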

Additional observations from a re-analysis of the deposited data

How the results depend on the processing

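The number of members depends on where the limits lie. It was 404 with FPKM in place of CPM (of which 197 are members), 450 with a looser second limit, 104 with a second limit of 2, 400 with an EV minimum of 1 CPM and 128 with 10 CPM. It was 218 with TMM and 194 with upper-quartile scaling, and 252 to 265 with any 1 library left out; 182 members (70.5%) were chosen in all 9 of those runs. The median first step was 0.88, 0.87 and 0.93 on the log2 scale with TMM, upper-quartile scaling and FPKM, against 0.95, and 0.94 to 0.99 with libraries left out. The median second step was 0.88, 0.83 and 0.93, against 0.91, and 0.90 to 0.96 with libraries left out. In the EV window the median ArPHR4/EV ratio was 0.06 on the log2 scale with column totals, -0.03 with TMM and -0.09 with upper-quartile scaling. The members called stayed between 221 and 258 for each comparison over all alternatives, and at 258 in each with the replicate block. With that block 6108 genes in all were called higher for ArPHR2 against EV and 7077 for ArPHR4 against EV. For ArPHR4 against ArPHR2 it was 4410 of the 27275 tested genes. The rule used these contrasts, so the counts of members are a description. The 15 members given by rank kept direction and call in all 765 results of the alternative fits, counted per member, comparison and setting. They were picked by level or ratio from genes chosen on the same counts, so this is a description and no test. Same-numbered libraries deviated together with r of -0.0029 to 0.0365, under the 0.1 asked of pairs, and not every library correlated best with its own number. Members with a length shift numbered 59 and 64 against EV with gene-wise centring, beside 23.8% and 20.0% of all genes examined. With a 1.5-fold limit they numbered 1 and 1, beside 0.581% and 1.12%. Between the constructs they numbered 0 with that limit, beside 0.0392%, and 0 with the replicate block, beside 0.111%. They numbered 30 with the higher minimum, beside 10.9%, and 1 to 7 with libraries left out, beside 0.306% to 0.972%. The cause was not tested.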

Other observations

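Other genes met the ratio limits outside the bounds of the rule on level or first step, which fixes the order of their groups. In the EV window, 30 genes had a first ratio of 4 or more and a second of at least 1.5. Their median levels were 7.35, 39.8 and 145 CPM in EV, ArPHR2 and ArPHR4, and together they took 0.0469% ± 0.000899, 0.328% ± 0.00787 and 0.831% ± 0.0154 of all counts (SD, n = 3). Their largest ratios were 13.5 for the first step and 18.3 for the second. A further 142 genes met both ratio limits at 1 to 3 CPM in EV, and 103 of these were called higher in both steps (edgeR, adjusted p under 0.05), beside 4.80% of all tested genes; these calls read the values that chose the genes. At 1000 CPM or more in EV, 1 gene met them, with means of 3188 ± 124, 7020 ± 149 and 12586 ± 184 CPM (SD, n = 3).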
